A study of Mus musculus with 2 samples.

Results

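The S100 genes encode small calcium-binding proteins of the EF-hand type. The 10 genes described here, S100a1, S100a4, S100a6, S100a8, S100a9, S100a10, S100a11, S100a13, S100a14 and S100a16, were taken by their symbols out of 24319 listed rows, and all 10 were found. They were measured by RNA sequencing in samples labelled as lymphatic endothelial cells (LECs), the cells that line lymphatic vessels. These came from the skin of C57BL/6 mouse embryos at E15.5 (embryonic day). The control library was wild type and the other was labelled Dot1l knockout (the knockout-labelled library), where Dot1l encodes a histone H3 methyltransferase and the protocol places the deletion in endothelium. Each genotype had 1 library, made from RNA pooled from 2 to 3 biological replicates, so no difference below has a replicate check, a test or a standard deviation.

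Most S100 proteins work as dimers that open a binding surface when calcium rises, and so bind partners such as annexins and cytoskeletal proteins inside the cell. S100a8 and S100a9 form the heterodimer calprotectin, an abundant cytosolic protein of neutrophils and monocytes. Released by cells, it acts on receptors such as Toll-like receptor 4. Other members are typical of stroma or epithelium: S100a4 is also known as fibroblast-specific protein, and S100a14 is found mainly in epithelia.

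The deposited values carry no unit. They were read as FPKM from the tools that the submitters' processing notes name and from their range, and the fragment estimates below depend on this reading. FPKM gives the fragments counted for every kilobase of a transcript out of each 1000000 mapped, a level per length. The values summed to 415537 in control and 530294 in the knockout-labelled library. The depth is not stated. The steps between low values gave estimates of 10200000 and 9110000 fragments, if the libraries were not scaled further. Dot1l was listed at 5.86 FPKM in control and 10.4 in the knockout-labelled library. The sources used here do not say which part of the gene was deleted, and reads from the rest would still count, so the label cannot be checked from this value. Of 8 lymphatic endothelial markers that reached 1 FPKM, 7 were lower by 2-fold or more in the knockout-labelled library (median -2.25), among them Flt4 (71.9 and 14.1 FPKM), Sox18 (18.4 and 1.28) and Mmrn1 (669 and 128). The exception was Lyve1, at 526 and 552, and the marker under 1 FPKM was Ccl21a (named after its values were seen), listed at 0.54 and 0. The 9 listed markers summed to 1513 FPKM in control and 742 in the knockout-labelled library, or 987 and 190 without Lyve1. The sums were 1383 and 293 for 10 pan-endothelial markers and 3588 and 928 for 10 fibroblast markers. In the same library 16 macrophage and monocyte markers summed to 3726 FPKM against 57.1 in control, and 8 mast cell markers to 12933 against 104.

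The 10 S100 genes split in both directions. The 3 further S100 genes that reached 1 FPKM did so only in control, so their lower direction in the knockout-labelled library was fixed by this filter. S100a9, S100a8 and S100a1 were higher in the knockout-labelled library by 2-fold or more on the log2(FPKM + 1) scale, S100a11, S100a16 and S100a10 were lower by 2-fold or more, and 4 genes lay within 2-fold. Thus 6 of 10 genes passed the 2-fold mark, 3 each way, beside 32.3% of all 13296 genes that reached 1 FPKM in either library (16.8% higher and 15.49% lower). The shares of these 10 genes were above those of all genes, but they rest on few genes, and no test was made. The 10 genes were chosen with earlier results of these data known, so no conclusion is drawn from this comparison. The median difference of the 10 genes was 0.21 on the log2 scale, beside 0.00 for all genes. This median lies between S100a14 and S100a13 and describes none of the genes that differed. All 10 genes reached 10 FPKM in the knockout-labelled library, and 7 did in control.

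**Figure D1:**
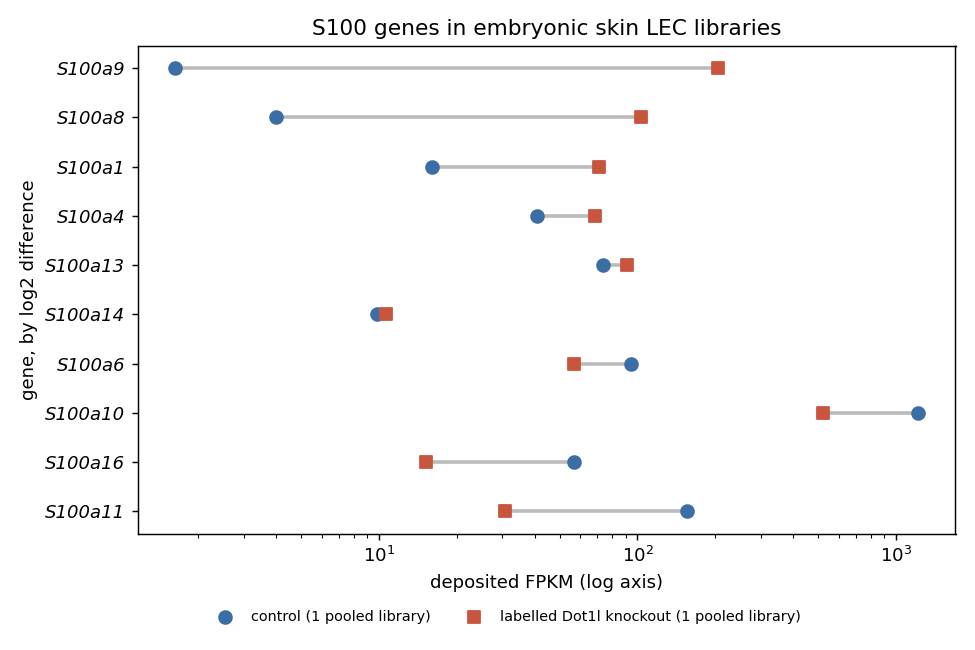
Deposited FPKM of each S100 gene on a log axis, with a circle for the control library and a square for the library labelled Dot1l knockout, sorted by log2 difference. S100a9 and S100a8 have the longest lines, from 1.63 to 205 and from 3.98 to 104 FPKM, while the points of S100a14 almost coincide (9.86 and 10.6).

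The calprotectin genes S100a8 and S100a9 had the largest differences of the family. S100a8 was 3.98 FPKM in control and 104 in the knockout-labelled library, 26.0 times as high, which is a log2(FPKM + 1) difference of 4.39. S100a9 was 1.63 FPKM in control and 205 in the knockout-labelled library, 126 times as high, which is a log2 difference of 6.30. The lowest pair of the 10 genes in control thus ranked next after S100a10 in the knockout-labelled library. Among all listed genes S100a9 went from rank 11340 to rank 334 and S100a8 from rank 9388 to rank 724, a measure that no scaling between libraries can change. The pair did not keep one ratio: S100a9 was 0.408 of S100a8 in control and 1.98 times S100a8 in the knockout-labelled library.

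The control values of this pair rest on few fragments. With coding transcripts of 486 nt for S100a8 and 512 to 519 nt for S100a9, and the depth estimated above, they correspond to about 11.7 to 19.8 and 5.21 to 8.65 fragments. The lower figure of each range assumes fragments of 200 nt, which shortens the usable part of a transcript, and the upper one uses its whole length. The folds and the control ratio are therefore loosely set, while the levels in the knockout-labelled library, about 271 to 459 and 585 to 970 fragments, are far from that limit. The same assumption touches all 10 genes, because their coding transcripts are short, from 336 to 1127 nt.

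Neutrophil markers were measured beside the calprotectin pair. Of 17 listed markers 11 reached 1 FPKM in either library. Of these 9 were higher by 2-fold or more in the knockout-labelled library and none was lower by that much, and the median difference was 2.25. Of all genes 16.8% were higher by that much. In control, however, 16 of the 17 listed markers were under 1 FPKM, all but Lcn2. The counted markers other than Lcn2 thus passed only through the knockout-labelled library, which fixed their direction. No conclusion is drawn from this count or median. The 17 markers summed to 11.2 FPKM in control and 98.3 in the knockout-labelled library. Retnlg, a secreted protein of mature neutrophils, was listed at 0 in control and 30.6 FPKM in the other library. The collagenase Mmp8 was listed at 0 and 10.8, and Ctsg, a protease of primary granules, at 0 and 26.9. The part of mast cells, whose markers summed to 104 and 12933 FPKM, in the Ctsg value was not tested. Lcn2, which epithelia also make, was 9.01 and 5.29. The receptor genes Cxcr2 (0.10 and 4.40 FPKM), Csf3r (0 and 3.74) and Fpr1 (0.17 and 5.78) and the protease gene Mmp9 (0.26 and 3.16) were low in control and higher in the other library. Among other genes of primary granules, Elane and Prtn3 were listed at 0 in both libraries and Mpo was 0.78 and 1.56. The granule genes Ngp (0.31 and 0.88), Camp (0.26 and 0) and Ltf (0.11 and 0.81) stayed under 1 FPKM in both. These 10 genes were named after their values were seen. Macrophage and monocyte markers were higher as well: all 15 that reached 1 FPKM passed 2-fold, and their median was 5.71. In control 10 of the 16 listed were under 1 FPKM. Of these, all but Ly6c2 were counted only through the knockout-labelled library, which fixed their direction. Lyz2, the lysozyme of myeloid cells, was 13.5 and 657 FPKM, and the monocyte receptor Ccr2 was 0.313 and 10.5, while Ly6c2, also a monocyte marker, was listed at 0 in both. Ccr2 and Ly6c2 were named after their values were seen. The part of neutrophils, or of macrophages and monocytes, in the S100a8 and S100a9 values was not tested. In bulk RNA, fewer or more cells of a type and less or more RNA per cell cannot be told apart, and this holds for every gene below.

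Because S100a8 and S100a9 differed in the same direction and S100a11 had the largest difference in the other, the 250 bases before the RefSeq start of these genes (GRCm38.p6, which is not the mm9 build of the submitters' processing notes) are shown for comparison. RefSeq windows were found for 8 of the 10 genes, S100a10 and S100a14 being the others. All lie on chromosome 3. Capitals mark letters of 4 motifs searched on both strands: TTNCNNAA for C/EBP factors, GAGGAA for PU.1, TGANTCA for AP-1 and TATAAA for the TATA box. C/EBP factors and PU.1 are transcription factors of myeloid cells.
S100a8, chr3:90668821-90669070, plus strand: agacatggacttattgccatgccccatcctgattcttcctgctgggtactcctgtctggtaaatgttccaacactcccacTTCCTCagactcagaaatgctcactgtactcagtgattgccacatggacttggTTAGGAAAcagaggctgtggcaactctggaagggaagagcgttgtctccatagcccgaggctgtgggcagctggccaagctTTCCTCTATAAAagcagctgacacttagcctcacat
S100a9, chr3:90695722-90695971, minus strand: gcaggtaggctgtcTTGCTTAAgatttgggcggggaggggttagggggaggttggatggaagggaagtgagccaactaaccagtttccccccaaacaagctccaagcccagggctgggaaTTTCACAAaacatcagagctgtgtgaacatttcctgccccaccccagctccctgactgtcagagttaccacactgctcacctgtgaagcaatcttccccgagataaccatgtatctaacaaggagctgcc
S100a11, chr3:93520246-93520495, plus strand: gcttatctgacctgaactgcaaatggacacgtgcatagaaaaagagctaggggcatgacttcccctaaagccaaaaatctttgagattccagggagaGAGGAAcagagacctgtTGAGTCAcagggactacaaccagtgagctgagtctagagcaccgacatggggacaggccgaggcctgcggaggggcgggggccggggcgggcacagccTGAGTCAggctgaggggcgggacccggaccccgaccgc
The C/EBP letters were in 2 of the 8 genes with a window, S100a8 (1 match) and S100a9 (2 matches). They were in 36.8% of 32851 windows of all genes, so they do not set this pair apart. The S100a8 window also held 2 matches of the PU.1 letters, the nearer of which abuts a TATA box that begins 30 bases before the start. The S100a11 window held 1 match of the PU.1 letters and 2 of the AP-1 letters, 136 and 38 bases before the start. The PU.1 letters were in 3 of the 8 genes (23.3% of all windows), the AP-1 letters in 2, S100a11 and S100a16 (6.75%), and the TATA box in 2, S100a4 and S100a8 (12.4%). Such matches describe the letters of these windows and are not binding sites.

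S100a1 also had a higher value in the knockout-labelled library. It is best known from heart and skeletal muscle, where it binds the calcium release channel and the calcium pump of the sarcoplasmic reticulum. It was 16.03 FPKM in control and 71.0 in the knockout-labelled library, 4.43 times as high (log2 difference 2.08). Of 8 skeletal muscle markers, 5 were lower in the knockout-labelled library by 2-fold or more and none was higher by that much. Their median was -1.31 and their summed FPKM was 44.6 in control and 9.51 in the other library. Actc1, the actin of heart and embryonic muscle, was 14.1 and 2.15 FPKM. The part of muscle cells in the S100a1 value was not tested. The pump gene Atp2a2, which most cells express, was 57.8 and 104 FPKM, within 2-fold on the log2 scale (0.83).

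S100a13, the neighbour of S100a1, starts back to back with it on the opposite strand. It takes part in the export of FGF1 and interleukin 1 alpha, proteins that leave the cell without a signal peptide. S100a13 was 73.3 FPKM in control and 91.2 in the knockout-labelled library, a log2 difference of 0.31. The ratio of S100a1 to S100a13 was 0.219 in control and 0.778 in the knockout-labelled library. In RefSeq the spans of these genes overlap at their starts. The sources used here do not say whether reads were assigned by strand, so reads from the shared stretch could be split either way. Of the cargo genes, Il1a was listed at 0 in control and 7.26 FPKM in the knockout-labelled library, and Fgf1 (named after its values were seen) was under 1 FPKM in both, at 0.934 and 0.0583. The S100a13 difference was -0.04 after scaling both libraries to a common sum of 1000000 FPKM, so its direction was not fixed.

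S100a10 was the most abundant S100 transcript in both libraries. S100a10, also called p11, has lost the ability to bind calcium and forms a stable complex with annexin A2 at the plasma membrane. S100a10 was 1220 FPKM in control, rank 29 of all listed genes, and 520 in the knockout-labelled library, rank 131. The control value was 2.34 times the other, a log2 difference of -1.23. Its partner Anxa2 was 304 and 329 FPKM, a log2 difference of 0.11. The ratio of S100a10 to Anxa2 was 4.01 in control and 1.58 in the knockout-labelled library. Ahnak, a large scaffold protein that binds the complex, was 238 and 244 FPKM. S100a10 was thus lower in the knockout-labelled library, while its 2 partners had log2 differences of 0.11 and 0.04.

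S100a11 and S100a16 were lower by a wider margin. S100a11, a partner of annexin A1, was 155 FPKM in control and 30.6 in the knockout-labelled library, lower by 5.08-fold (log2 difference -2.31). It was the second most abundant of the 10 genes in control and the eighth in the knockout-labelled library. Its partner Anxa1 was also lower, at 161 and 71.6 FPKM (log2 difference -1.15), and the ratio of S100a11 to Anxa1 was 0.967 in control and 0.427 in the other library. S100a16, a widely expressed member, was 56.8 FPKM in control and 15.2 in the knockout-labelled library, lower by 3.73-fold (log2 difference -1.83). The 10 pan-endothelial markers all passed 2-fold in the same direction (median -2.42), as did 9 of 10 fibroblast markers (median -1.90). Among them Cdh5, a cadherin that joins endothelial cells, was 227 and 34.4 FPKM and the collagen gene Col3a1 was 1481 and 391. The part of these cells in the S100a10, S100a11 and S100a16 values was not tested.

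The stromal genes S100a4 and S100a6 differed less and in opposite directions. S100a4, which binds non-muscle myosin IIA, was 40.8 FPKM in control and 68.5 in the knockout-labelled library, a log2 difference of 0.73. Fibroblast markers in the same library were lower: Dcn, the matrix proteoglycan decorin, was 503 and 51.1 FPKM and Lum, lumican, was 241 and 44.0. S100a4 is also expressed by macrophages and other leukocytes, and the part of any of these cells in its value was not tested. The myosin gene Myh9 was 184 and 191 FPKM. S100a6, or calcyclin, was 94.7 FPKM in control and 56.7 in the knockout-labelled library, a log2 difference of -0.73, and its binding protein Cacybp was 87.8 and 79.1. After scaling to a common sum of 1000000 FPKM, the S100a6 difference was -1.09 and passed the 2-fold mark.

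S100a14, the epithelial member, had almost the same value in both libraries, 9.86 and 10.6 FPKM, and ranks of 6345 and 6352 among all listed genes. Its log2 difference was 0.10, or -0.23 after scaling to a common sum of 1000000 FPKM. Keratinocyte markers were lower in the knockout-labelled library: 6 of 11 were so by 2-fold or more and none was higher by that much, their median was -1.07, and their summed FPKM was 224 and 103. Krt14, a keratin of basal epidermis, was 35.4 and 16.3 FPKM, and Krt1, of differentiating epidermis, was 9.30 and 1.05. The cells that gave the S100a14 transcripts were not identified.

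The make-up of the family's transcripts differed between the libraries, and shares within a library do not depend on the scaling between them. The 10 genes summed to 1672 FPKM in control and 1173 in the knockout-labelled library. S100a10 took 72.9% of that sum in control and 44.4% in the knockout-labelled library. Without S100a10 the order of the libraries turned, with 452 FPKM in control and 653 in the knockout-labelled library. S100a8 and S100a9 together went from 0.336% to 26.3% of the sum, S100a1 from 0.959% to 6.05%, and S100a11 from 9.29% to 2.61%. The highest gene was 750 times the lowest in control and 48.9 times in the knockout-labelled library, so the levels of the family were more even there.

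**Figure D2:**
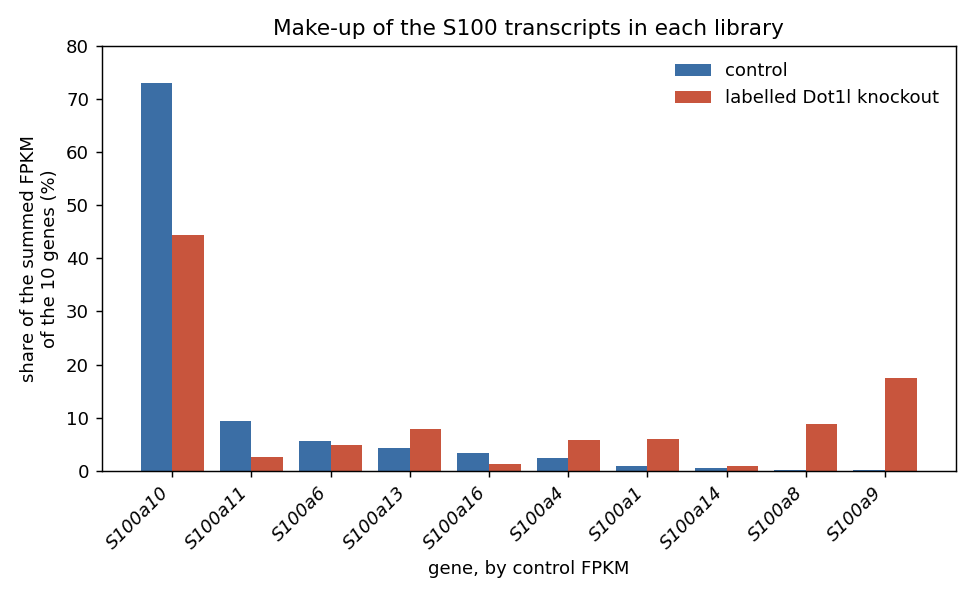
Share of each gene in the summed FPKM of the 10 S100 genes, in percent, with 1 bar per library and genes sorted by control FPKM. S100a10 takes 72.9% of the control sum and 44.4% of the other, and S100a8 and S100a9, close to 0 in control, reach 8.83% and 17.5% in the knockout-labelled library.

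All 10 genes lie on mouse chromosome 3, and neighbours among them shared a direction in some pairs and differed in others. In RefSeq's order (GRCm38.p6) the first 8 are S100a1, S100a13, S100a14, S100a16, S100a4, S100a6, S100a8 and S100a9. S100a11 and S100a10 follow beyond 56 protein-coding genes, 35 of which are Lce or Sprr genes of the cornified envelope. S100a1, S100a13 and S100a14 had differences of 2.08, 0.31 and 0.10, though those of S100a13 and S100a14 changed sign under other scalings. S100a8 and S100a9, next to each other, were both higher in the knockout-labelled library. S100a11 and S100a10, also next to each other, were both lower. S100a16, at -1.83, lay between S100a14 at 0.10 and S100a4 at 0.73. S100a6, at -0.73, lay between S100a4 and S100a8 at 4.39.

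**Figure D3:**
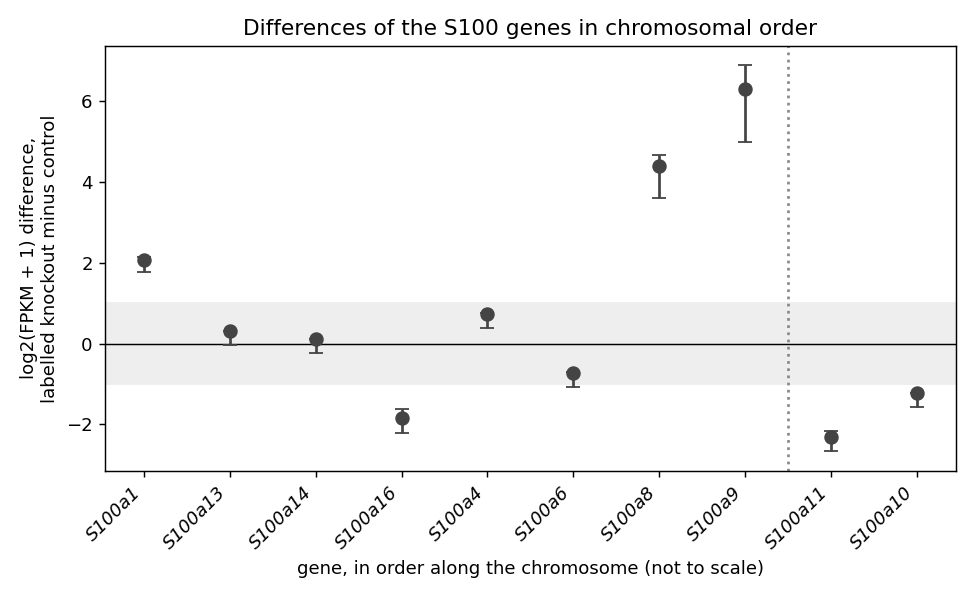
Log2(FPKM + 1) difference, knockout-labelled library minus control, of the S100 genes in their order along the chromosome; points are the values reported, whiskers the lowest and highest value over 5 other pseudocounts and scalings, the grey band marks less than 2-fold, and the dotted line stands for the gap filled by other genes. The whiskers of S100a13 and S100a14 cross 0, and those of the 6 genes outside the band stay outside it.

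Most annexins and other S100 partners lay within 2-fold, and so did 67.7% of all genes. Of 10 annexins that reached 1 FPKM in either library, 2 were higher by 2-fold or more, 2 lower and 6 within 2-fold (median 0.14). Anxa3 was 21.98 FPKM in control and 76.7 in the knockout-labelled library, a log2 difference of 1.76, and Anxa11, a partner of S100a6 named after its values were seen, was 4.19 and 9.51. The lower genes were Anxa1 and Anxa8, the latter at 2.04 and 0.268. Anxa5, widely used to stain dying cells, was 190 and 200 FPKM, and Anxa6 was 186 and 148. Of 7 other intracellular partners 6 lay within 2-fold, and Il1a was the exception.

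Receptors and co-receptors of released S100 proteins went both ways. Of 9 measured genes 3 were higher in the knockout-labelled library by 2-fold or more, 3 lower and 3 within 2-fold (median 0.13). The higher genes belong to the receptor complex for lipopolysaccharide, on which calprotectin also acts. Tlr4 itself was 1.35 FPKM in control and 30.3 in the knockout-labelled library, and its co-receptor Cd14 was 0.867 and 22.6. Ly96, which encodes the MD-2 subunit, was 9.42 and 20.0. The lower genes were adhesion molecules and a fatty acid receptor: Mcam, also an endothelial and pericyte marker, was 74.1 and 11.7, Alcam was 30.6 and 9.74, and Cd36 was 153 and 74.1. Bsg, which encodes basigin, was 209 and 189 FPKM, and Nptn, neuroplastin, was 42.6 and 46.6. Ager, the gene of the receptor RAGE, was low in both libraries at 1.69 and 1.96. Ly96, Alcam and Ager were named after their values were seen. Tlr4 and Cd14 are also genes of macrophages, whose markers summed to 57.1 and 3726 FPKM, and the part of these cells was not tested.

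**Figure D4:**
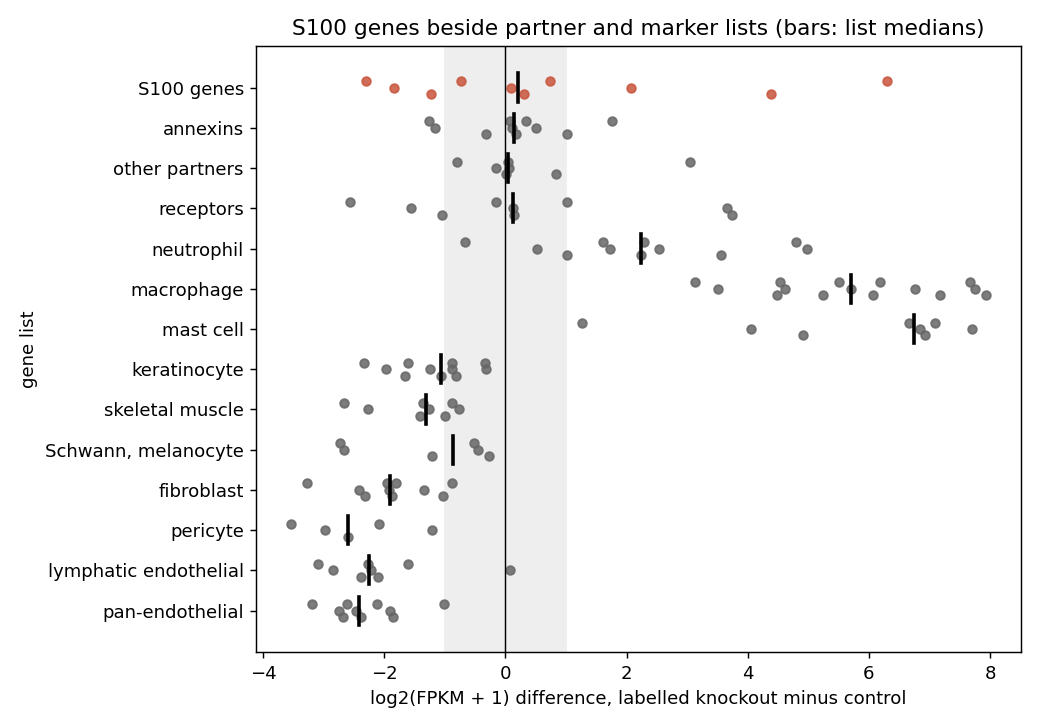
Log2(FPKM + 1) difference, knockout-labelled library minus control, of the genes in the lists shown that reached 1 FPKM in either library. Each point is 1 gene, black bars are list medians and the grey band marks less than 2-fold. The S100 row holds the 10 genes described here. Further S100 genes, fused-type S100 genes and adipocyte markers are not shown. The S100 genes spread from -2.31 to 6.30 around a median of 0.21, while neutrophil, macrophage and mast cell markers lie mostly to the right and endothelial and fibroblast markers to the left. Many of the neutrophil and macrophage markers shown reached 1 FPKM only in the knockout-labelled library, which fixed their direction.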

How the data were processed

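The deposited FPKM of 2 libraries were used, 1 per genotype. The authors deposited 1 value per gene symbol with no unit, read here as FPKM from the tools named and the range of the values, and no counts were used. STAR 2.5.2b, Cufflinks 2.2.1, Cuffnorm, R 3.3.2 and the build mm9 are named in the submitters' processing notes, without roles. Neither the annotation nor a scaling of one library to the other is stated there. Libraries were made from RNA with an integrity number above 7.0 with the ScriptSeq v2 kit, per the labels' protocols. The labels also give a protocol for cultured dermal LECs, and whether the sequenced cells were cultured or how they were purified is not stated.

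Differences were computed as log2(FPKM + 1), knockout-labelled library minus control, over genes with at least 1 FPKM in either library (Python 3.11.15, pandas 2.3.3, numpy 2.4.6). Folds of single genes are ratios of deposited FPKM. A difference of 2-fold was the mark for a count. Values at exactly 0 can be failed estimates. The computation was tested on simulated data. Depth was estimated from genes with a single GENCODE M21 transcript of at least 2500 nt, for an assumed fragment length of 200 nt. Of 500 depths tried, the one with the highest score was taken. The score rose with the number of values up to 5 fragments and with the share of them within 0.1 of a whole number. At the depths taken this share was 83.0% of 159 values in control and 76.0% of 175 in the knockout-labelled library. Named are all 10 members, Dot1l, other S100 genes above 0, and of each list up to 4 genes with the highest FPKM and the 2 with the largest difference. The members and lists were chosen with earlier results of these data known. Marker lists of adipocytes (summed FPKM 85.2 and 8.24), pericytes and smooth muscle (140 and 16.6) and Schwann cells and melanocytes (57.3 and 19.6) were also computed. Alternatives were other pseudocounts, scalings, minimum FPKM and fold marks.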

Additional observations from a re-analysis of the deposited data

How the results depend on the processing

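No paired analysis was possible because there are only 2 libraries, 1 per genotype, so none could be left out. The counts of 3 higher and 3 lower S100 genes became 3 and 4 after scaling to a common sum of 1000000 FPKM, 4 and 4 at 1.5-fold and 3 and 2 at 3-fold, and were 3 and 3 under the other alternatives. The median difference of 0.21 was 0.21 with a pseudocount of 0.1, 0.19 with a pseudocount of 5, -0.13 after scaling to the common sum, 0.044 at the same upper quartile and 0.16 with the median ratio of genes at 10 FPKM or more set to 0. Scaling to the common sum of 1000000 FPKM moved the median of all genes to -0.33, and the shares of all genes 2-fold or more higher and lower from 16.8% and 15.49% to 14.3% and 25.0%. Over 5 pseudocounts and scalings 8 of 10 genes kept their direction, S100a13 and S100a14 being the exceptions, and the S100a9 difference ranged from 4.99 to 6.89. Depth limits the control values of S100a8 and S100a9 most.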

Other observations

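Other S100 genes were low or listed at 0. Of 7 further S100 genes in the lists, S100a2, S100a3, S100a5 and S100z were listed at 0 in both libraries. The other 3 were all lower in the knockout-labelled library by 2-fold or more on the log2(FPKM + 1) scale, beside 15.49% of all genes. They reached 1 FPKM only in control, which fixed their direction, so no conclusion is drawn from this count. S100b, a marker of Schwann cells and other glia, had 4.07 FPKM in control against 0.805 in the knockout-labelled library. S100g, a calcium-binding protein of intestine and uterus, had 4.15 FPKM and S100a7a 2.05 FPKM in control, and both were listed at 0 in the other library. Fused-type S100 genes, which encode large proteins of the cornifying epidermis and hair follicle, were near the lower limit: of 6 listed genes, 1 reached 1 FPKM in either library. This was Tchh, which encodes trichohyalin, at 1.503 and 0.945 FPKM.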
